A study of Mus musculus with 32 samples.

Results

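The mRNAs of the nuclear-encoded subunits of the respiratory chain were followed in primary white adipocytes, the lipid-storing cells of mouse subcutaneous fat, by sequencing of poly(A) RNA. Members were the protein-coding genes of the deposited count table whose symbol starts with Nduf followed by a, b, c, s or v and a digit, is Sdha, Sdhb, Sdhc or Sdhd, starts with Uqcr or Atp5, or starts with Cox followed by a digit from 4 to 8, with Cox7a1 left out. This rule names 87 of the 56748 genes in the table. Of these, 83 were among the 16984 genes that passed a filter on low counts: 38 of complex I, 4 of complex II, 8 of complex III, 16 of complex IV and 17 of complex V. Ndufb11b held 2 counts over all libraries, and Cox7b2, Cox8c and a further identifier named Atp5o held none. Cox5b-ps, a near copy of Cox5b, carries the label of a protein-coding gene in the table and was kept, and reads may have been split between the copies. Symbols are those of the table, which uses older names such as Atp5b for the beta subunit of ATP synthase.

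Cells received siNfe2l1 together with siAtf3 (below, both siRNAs), siNfe2l1 alone, siAtf3 alone, or a scrambled siRNA. Nfe2l1 encodes a membrane-bound transcription factor known for inducing genes of the proteasome, and Atf3 a stress-responsive member of the ATF/CREB family. The study asks, by its title, about control of adipocyte inflammation by these factors under cholesterol. Each siRNA group was given cholesterol (400 µM on methyl-β-cyclodextrin, a carrier made of a ring of sugars, for 6 h) or control treatment, which gives 8 groups of 4 libraries. The labels list the scramble cells as WT, and they leave unstated whether control cells received the carrier, so cholesterol and its carrier cannot be told apart. Libraries are labelled as biological replicates, with no word on separate animals or cultures, and the p-values measure the spread between these libraries only.

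The respiratory chain sits in the inner mitochondrial membrane and passes electrons to oxygen. Complex I takes them from NADH and complex II from succinate, coenzyme Q carries them to complex III, cytochrome c carries them on to complex IV, and complex V, the ATP synthase, uses the proton gradient that complexes I, III and IV build up. A few subunits are encoded by mitochondrial DNA and all others by nuclear genes. In white adipocytes the chain supplies ATP for lipid synthesis and secretion, and in brown and beige fat cells its heat production is known to depend on uncoupling. Several subunits exist as tissue isoforms or paralogs encoded by separate genes.

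Total counts were 23457384 to 33828418 per library, and levels are given as CPM, counts relative to library sizes scaled by the TMM method. Nfe2l1 had 79.5, 80.2, 61.5 and 73.8 CPM with siNfe2l1, against 479, 489, 493 and 487 CPM with scramble in control cells, a log2 fold change of -2.72. Atf3 was lower with siAtf3 than with scramble by a log2 fold change of -1.40 in control and -3.28 in cholesterol, and it was higher with cholesterol than with control in scramble cells by 3.89. With both siRNAs, the log2 fold changes in control were -2.09 for Nfe2l1 and -0.80 for Atf3 (adjusted p = 0.0468 for Atf3, edgeR's quasi-likelihood test). In scramble cells, adipocyte genes summed to 31274 to 33049 CPM with cholesterol and 24799 to 25714 CPM with control, and fibroblast markers to 10686 to 11418 CPM with cholesterol and 30040 to 31525 CPM with control. In bulk RNA, fewer cells of a type and less RNA per cell cannot be told apart. No marker on the lists below was at 0 counts in every library.

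Some libraries stood apart in the subunits. For each library, the median over the 83 members of the log2 level relative to the mean of the scramble control libraries was taken. It was 0.48 in library 1 of scramble cholesterol and 0.16 to 0.24 in the other 3 libraries of that group. It was 0.07 in library 4 of siNfe2l1 control, against -0.17 to -0.10 in its other 3 libraries. Library 4 of both siRNAs in control (0.09, against -0.08 to -0.06) and library 1 of siAtf3 cholesterol (0.31, against 0.05 to 0.13) were likewise the highest of their groups. In 209 other protein-coding genes shorter than 1500 bases with more than 32 CPM, the same median was 0.39 in library 1 of scramble cholesterol, against 0.07 to 0.14 in the other 3. It was 0.13 in library 4 of siNfe2l1 control, against -0.04 to -0.02 in the rest of that group. The part of this shared shift of short genes in the results was not tested, and the counts of members without each of these libraries are given below beside the comparisons of 2 groups that use it.

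**Figure D1:**
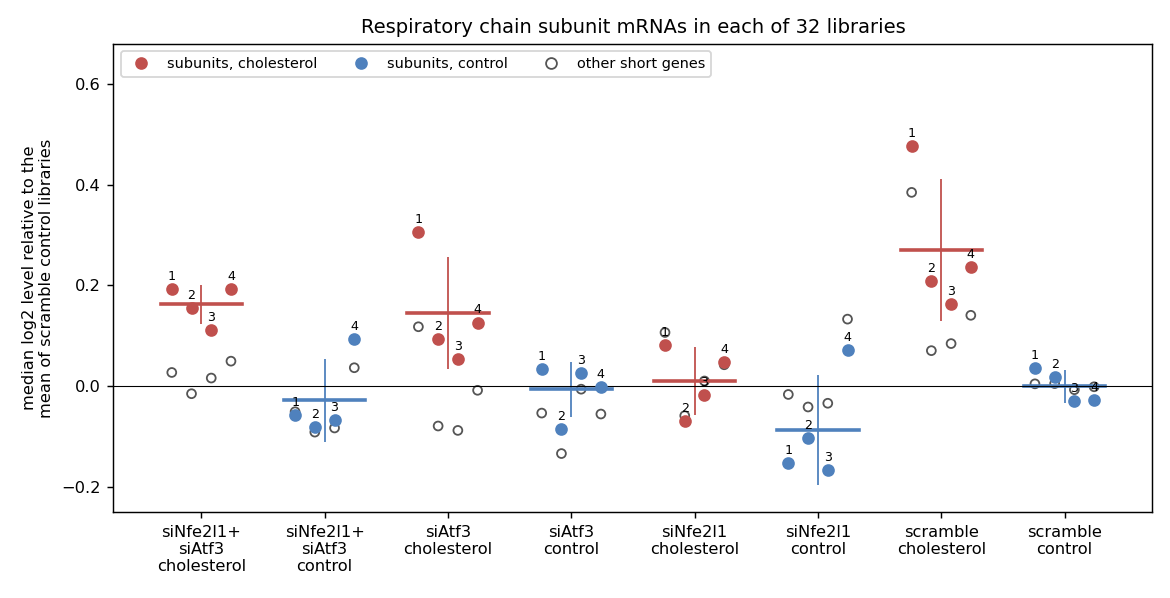
Each dot is the median, over the 83 subunit genes of 1 library, of the log2 level relative to the mean of the scramble control libraries (y axis), by group (x axis), with open circles for the 209 other short genes. The 4 scramble cholesterol libraries sit between 0.16 and 0.48, above the 4 scramble control libraries, which lie between -0.03 and 0.04.

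Levels between genes were compared per kilobase of gene length in the table, in scramble control cells (mean ± SD, n = 4). Complex IV held the highest member, Cox6a1 (CPM per kilobase 908 ± 27.8), the ubiquitous form of subunit 6A, followed by Cox8a (693 ± 26.0). Cox6b1 (361 ± 12.4) and Cox4i1 (359 ± 4.66) came next in complex IV, at about the same level. Of complex V, Atp5b and Atp5a1, the beta and alpha subunits of its catalytic head, reached 574 ± 3.42 and 439 ± 5.06 CPM per kilobase, and Atp5g1, a gene for the c subunit of the membrane ring, had 11.7 ± 0.806. The order of Cox6a1, Cox8a, Atp5b and Atp5a1 was separated by more than the spread between libraries, and that of Cox6b1 and Cox4i1 was not. In complex III, Uqcrfs1, the Rieske iron-sulfur protein, had 266 ± 2.62 and Uqcr10, a small subunit, 249 ± 11.9 CPM per kilobase, while Uqcrb, another small subunit, had 103 ± 4.43. In complex II, the flavoprotein subunit Sdha had 201 ± 1.63, the membrane anchor Sdhd 182 ± 6.00, the iron-sulfur subunit Sdhb 109.7 ± 3.46 and the anchor Sdhc 71.1 ± 1.90 CPM per kilobase. In complex I, the accessory subunits Ndufa1 and Ndufa2 had 160.4 ± 5.30 and 150.2 ± 2.79 CPM per kilobase, and Ndufb2 had 1.05 ± 0.204. These levels depend on the listed gene length, which is 5628 bases for Ndufb2 and 4912 bases for Atp5g1. Ndufb2 also overlaps Braf (37.8 CPM on average), so its level is uncertain. The lowest of complex IV were the isoforms Cox6a2 (2.27 ± 0.322) and Cox6b2 (1.52 ± 0.128). Together the 87 members took 1.80% ± 0.116 of all counts in scramble cholesterol cells and 1.64% ± 0.0302 in scramble control cells (SD, n = 4 each).

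The 250 bases before the RefSeq start site (build GRCm38.p6) were searched on both strands for short cores of factors known for mitochondrial genes and for the families of the silenced factors. A promoter was found for 67 of the 83 members, and shares over all 32851 promoters of the RefSeq table are given for comparison. The search went by symbol, so members under older names, as in most of complex V, can be missed. The shares may therefore leave much of complex V out. CGCATGCG, the core of the factor NRF1, occurred in 7 members (10.4%, against 1.55% of all promoters), and CCGGAAG, a core of ETS factors such as GABPA, in 12 (17.9%, against 6.91%). NRF1 stands here for the product of Nrf1, a gene other than the silenced Nfe2l1. AAGATGGC, the YY1 core, occurred in 1 (1.49%, against 1.56%), and CAAGGTCA, the core of estrogen-related receptors, in 3 (4.48%, against 1.33%). TGACGTCA, the cyclic AMP response element that ATF and CREB proteins bind, occurred in 4 (5.97%, against 1.55%), namely Ndufa10, Ndufa11, Ndufb2 and Uqcrfs1. TGACNNNGC, the antioxidant response element core of the family that holds Nfe2l1, occurred in 6 (8.96%, against 10.2%). In Ndufs5 its match overlaps the match to CAAGGTCA. Such a match describes letters, not a binding site. Shares of members count genes with a match in any listed promoter, while shares for comparison count single promoters, so the units differ.

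Promoters of 4 members on which the results below turn are printed 5′ to 3′ on the gene's strand with every match in capitals. Ndufc1 (chr3:51408956-51409205, minus strand) fell most with siAtf3 and holds none of the 6 cores. Ndufa10 (chr1:92473759-92474008, minus strand) was lower under every siRNA in both treatments and holds the cyclic AMP response element from 67 bases before the start. Ndufa8 (chr2:36049339-36049588, minus strand) was lower with siAtf3 in both treatments and holds the NRF1 core from 9 bases before the start. Cox6a1 (chr5:115348959-115349208, minus strand), the member with the highest level, holds the NRF1 core and, on the other strand, the ETS core.
Ndufc1: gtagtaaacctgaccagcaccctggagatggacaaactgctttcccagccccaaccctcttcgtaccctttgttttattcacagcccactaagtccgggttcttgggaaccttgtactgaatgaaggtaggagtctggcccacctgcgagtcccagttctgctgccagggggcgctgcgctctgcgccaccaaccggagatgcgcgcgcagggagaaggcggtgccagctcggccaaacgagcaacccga
Ndufa10: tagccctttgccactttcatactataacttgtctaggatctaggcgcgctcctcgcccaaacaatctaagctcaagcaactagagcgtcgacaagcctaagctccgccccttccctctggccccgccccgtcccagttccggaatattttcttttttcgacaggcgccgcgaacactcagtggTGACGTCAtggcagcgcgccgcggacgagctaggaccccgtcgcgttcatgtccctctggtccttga
Ndufa8: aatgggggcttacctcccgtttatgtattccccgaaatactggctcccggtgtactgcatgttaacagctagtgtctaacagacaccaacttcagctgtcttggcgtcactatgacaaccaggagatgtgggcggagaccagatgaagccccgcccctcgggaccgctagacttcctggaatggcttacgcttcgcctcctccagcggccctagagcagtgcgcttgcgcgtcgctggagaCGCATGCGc
Cox6a1: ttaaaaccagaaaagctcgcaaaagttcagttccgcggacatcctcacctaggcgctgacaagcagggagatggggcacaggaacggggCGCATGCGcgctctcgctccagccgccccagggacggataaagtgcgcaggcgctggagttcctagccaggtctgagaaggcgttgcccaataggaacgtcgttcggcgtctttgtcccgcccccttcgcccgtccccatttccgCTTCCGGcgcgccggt

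In scramble cells, cholesterol was accompanied by a higher level of most subunit mRNAs. With edgeR's quasi-likelihood test and Benjamini-Hochberg adjustment over all genes tested, 66 of 83 members were higher and 2 lower with cholesterol, where 32.9% of all genes were called higher and 32.3% lower. The median log2 fold change of the members was 0.28, that of all genes tested 0.00. In 61 of the 66 higher members the 4 cholesterol libraries lay above the 4 control libraries without overlap. Such counts, here and below, come without the share over all genes, so they do not set the members apart from other genes. Complex IV had the largest median, 0.41, with 14 of 16 members higher and 1 lower, followed by complex III (7 of 8 higher, median 0.30), complex V (13 of 17, 0.26), complex I (30 of 38 higher and 1 lower, 0.25) and complex II (2 of 4, 0.10). Complexes follow the symbols here and below, so Ndufa4 and its paralog Ndufa4l2, the lower member, are counted under complex I. Without library 1 of scramble cholesterol, 60 members were higher and 2 lower, with a median of 0.22. Scaling by library totals alone moved the median of all genes by -0.12 and that of the members to 0.15, with 44 higher and 3 lower.

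Other cell type markers moved with the same comparison. With cholesterol, 18 of 20 adipocyte genes were higher and 1 lower, and 6 of 9 thermogenic genes were higher and 2 lower. The thermogenic list holds Cox8b, itself a member, and shares Cidea with the adipocyte list. Ppargc1a is on both the thermogenic list and that of regulators of mitochondrial biogenesis. Fibroblast markers were lower in 10 of 11, macrophage markers in 11 of 13, endothelial markers in 9 of 10 and smooth muscle and pericyte markers in 7 of 10 (2 higher). The summed levels were 142 to 173 CPM with cholesterol and 229 to 267 CPM with control for macrophage markers. They were 500.0 to 618 CPM with cholesterol and 919 to 996 CPM with control for endothelial markers, and 498 to 525 CPM with cholesterol and 1139 to 1198 CPM with control for smooth muscle and pericyte markers. The part of these shifts in the subunit result was not tested.

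Among the fixed members of each complex, Cox4i1, the common form of the regulatory subunit 4 of cytochrome c oxidase, had 835, 660.0, 672 and 673 CPM with cholesterol and 562, 558, 559 and 546 CPM with control. The first cholesterol library was far above the other 3, and all 4 were above every control library (log2 fold change 0.35 ± 0.06 (SE), adjusted p = 6.97e-06). Atp5b had 3137, 2830.5, 2884 and 2829 CPM with cholesterol and 2443, 2444, 2415 and 2423 CPM with control. The groups did not overlap, and the log2 fold change was 0.26 ± 0.04 (adjusted p = 2.37e-07). Uqcrc2, a core protein of complex III, had 411, 377, 365 and 378 CPM with cholesterol and 340.5, 334, 323 and 325 CPM with control (0.21 ± 0.04, adjusted p = 7.21e-05). The short subunits Uqcrq and Uqcr10 of the same complex rose by 0.52 ± 0.07 and 0.53 ± 0.09. Sdhb rose by a log2 fold change of 0.20 ± 0.05 (adjusted p = 0.00159) and Ndufb8, an accessory subunit of complex I, by 0.25 ± 0.06 (adjusted p = 0.000874). Ndufs1, the large iron-sulfur subunit of complex I, rose least of these, by 0.10 ± 0.04 (adjusted p = 0.0333), changed by -0.023 with library totals alone, and lost its call without any 1 of library 3 or 4 of scramble control and library 2 or 4 of scramble cholesterol. It overlaps Eef1b2, and reads of the overlap cannot be told apart without strand.

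The largest rises in complex I and V were in small subunits. Ndufb1 had 40.5, 40.5, 43.7 and 46.4 CPM with cholesterol and 28.4, 30.3, 26.3 and 27.9 CPM with control (0.60 ± 0.17, adjusted p = 0.00264), and it overlaps Cpsf2, which had 66.4 CPM on average. Atp5k, the e subunit of the ATP synthase, had 60.0, 59.7, 59.8 and 69.5 CPM with cholesterol and 42.7, 44.3, 39.4 and 37.7 CPM with control (0.60 ± 0.19, adjusted p = 0.00711). In both genes library 4 was the highest of the cholesterol group, and the groups did not overlap. Cox7c, a small subunit of complex IV, rose by 0.52 ± 0.11 and Cox5b-ps by 0.57 ± 0.09 (adjusted p = 0.000118 and 4.79e-07).

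**Figure D2:**
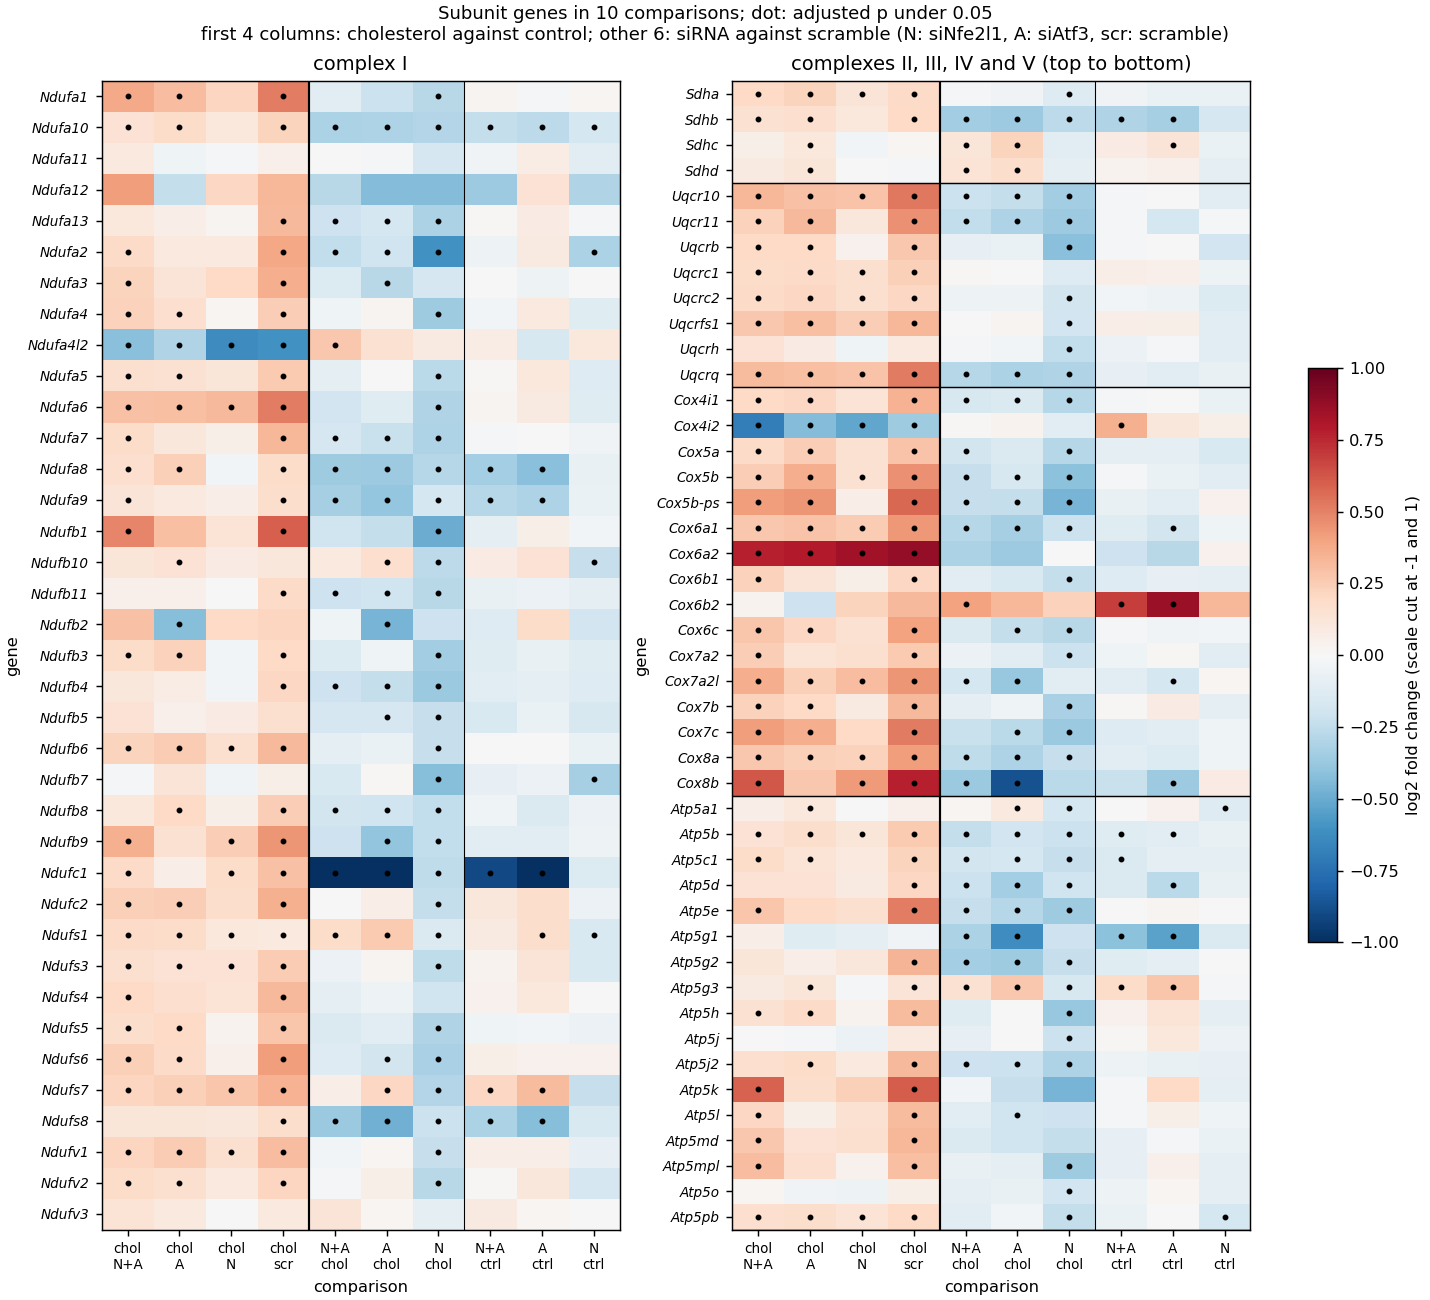
Log2 fold changes (colour, cut at -1 and 1) of the subunit genes (rows, complex I on the left and complexes II to V on the right, 1 of the 83 not drawn) in 10 comparisons (columns), with a dot where the adjusted p is under 0.05. The first 4 columns, cholesterol against control, are mostly positive with Ndufa4l2 and Cox4i2 negative in each, and most values in the siNfe2l1 column in cholesterol are negative.

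The 2 members that fell with cholesterol in scramble cells are both paralogs known for induction by low oxygen in other cells. Ndufa4l2, the paralog of Ndufa4 (a subunit named for complex I that is now assigned to complex IV), had 103, 116, 109.7 and 99.4 CPM with cholesterol and 152, 175, 169 and 156 CPM with control. The groups did not overlap (-0.61 ± 0.08, adjusted p = 1.65e-08), while Ndufa4 rose by 0.25 ± 0.07 (adjusted p = 0.00336). Ndufa4l2 overlaps Shmt2, which had 119.0 CPM on average, and reads of the overlap cannot be told apart. Per kilobase, Ndufa4l2 made up 34.6% to 43.8% of the sum of Ndufa4 and Ndufa4l2 with cholesterol and 52.0% to 56.5% with control. Cox4i2, the paralog of Cox4i1 found mainly in lung, had 8.85, 7.55, 7.83 and 8.67 CPM with cholesterol and 9.99, 11.5, 9.34 and 11.2 CPM with control (-0.35 ± 0.10, adjusted p = 0.00314). It made up 2.04% to 2.47% of subunit 4 mRNA per kilobase with cholesterol and 3.18% to 3.90% with control, without overlap.

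The isoforms known from heart, muscle and brown fat moved the other way. Cox8b had 43.9, 39.9, 38.0 and 43.4 CPM with cholesterol and 25.3, 26.5, 21.1 and 23.7 CPM with control in scramble cells, again without overlap (0.77 ± 0.13, adjusted p = 3.58e-06), and the ubiquitous Cox8a rose by 0.42 ± 0.06. The share of Cox8b in subunit 8 mRNA per kilobase was 10.5% to 11.6% with cholesterol and 8.19% to 9.35% with control. Cox6a2 had 3.09, 2.85, 2.27 and 3.19 CPM with cholesterol and 1.58, 1.81, 1.27 and 1.53 CPM with control (0.88 ± 0.21, adjusted p = 0.000304), the largest log2 fold change of the members at a level near that of few reads, next to Itgad, which overlaps it and had 21.1 CPM on average. Cox6b2, an isoform known from testis, was not called (0.33 ± 0.18, adjusted p = 0.105, 95% interval -0.04 to 0.69). Cox7a2l, a subunit-like protein that joins complexes III and IV, rose by 0.44 ± 0.07 (adjusted p = 5.68e-07).

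**Figure D3:**
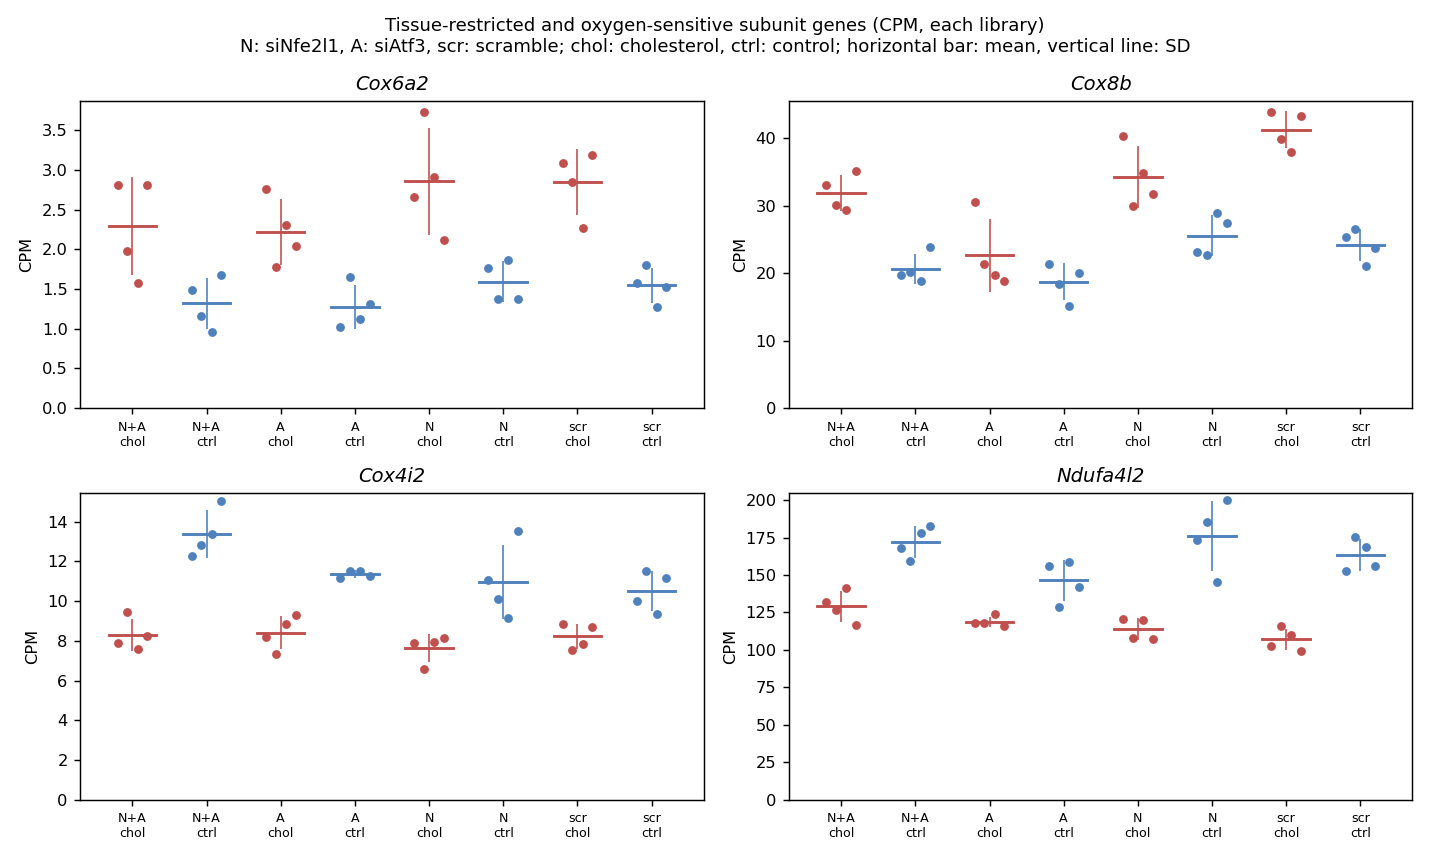
Levels in CPM (y axis, from 0) of subunit isoforms and paralogs in the 8 groups (x axis), with a dot for each library, a bar for the mean and a line for the SD of 4 libraries. Ndufa4l2 and Cox4i2 lie lower, and Cox8b and Cox6a2 higher, in scramble cholesterol than in scramble control.

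Cholesterol was also compared with control within each silenced group. With siNfe2l1, 22 members were higher and 2 lower (31.1% of all genes higher and 29% lower), with a median log2 fold change of 0.11. The groups did not overlap in 8 of the higher and both lower members. The count of calls was 13 in all without library 1 of siNfe2l1 cholesterol, 14, 15 and 14 without libraries 1, 2 and 3 of siNfe2l1 control, 36 without library 4 of siNfe2l1 control, and 45 (43 higher) without that library and library 1 of scramble cholesterol. A fit on only the groups compared gave 15. With siAtf3, 48 members were higher and 3 lower (29.4% of all genes higher and 28.6% lower), median 0.17, and 37 higher and 3 lower without library 1 of siAtf3 cholesterol. With both siRNAs, 56 were higher and 2 lower (29.8% higher and 28.9% lower), median 0.19, and 64 higher and 2 lower without library 4 of both siRNAs in control. The groups did not overlap in 40 of the higher members with siAtf3 and in 41 with both siRNAs. Of complex III, 5, 7 and 7 of 8 members were higher with siNfe2l1, siAtf3 and both siRNAs, and of complex V 2, 7 and 9 of 17. These differences between siRNA groups were tested as interactions, given further below. Scaling by library totals alone left 10 higher and 3 lower members with siNfe2l1, 26 and 3 with siAtf3, and 27 and 2 with both siRNAs. In each of the 3 silenced groups, at least 11 of 13 macrophage markers, all 11 fibroblast markers and at least 8 of 10 endothelial markers were lower with cholesterol, and at least 15 of 20 adipocyte genes higher.

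In all 4 siRNA groups, 19 of the 83 members were higher with cholesterol, a share close to the 21.9% of all genes. In siNfe2l1 cells, Ndufs1 and Atp5b each lost this call without any 1 of libraries 1, 2 and 3 of siNfe2l1 control or library 1 of siNfe2l1 cholesterol. Ndufs1 also lost it without library 3 or 4 of siNfe2l1 cholesterol. The 19 were Ndufa6, Ndufb6, Ndufs1, Ndufs3, Ndufs7 and Ndufv1 of complex I, Sdha of complex II, Uqcrc1, Uqcrc2, Uqcrfs1, Uqcrq and Uqcr10 of complex III, Cox5b, Cox6a1, Cox6a2, Cox7a2l and Cox8a of complex IV, and Atp5b and Atp5pb of complex V. Cox6a2 rose by 0.84 with siNfe2l1, 0.79 with siAtf3 and 0.78 with both siRNAs (log2). Ndufa4l2 and Cox4i2 were the members lower in all 4 groups, as were 20.8% of all genes. Ndufa4l2 changed by -0.63 ± 0.08, -0.30 ± 0.08 and -0.42 ± 0.08 with siNfe2l1, siAtf3 and both siRNAs (log2 fold change ± SE). Cox4i2 changed by -0.52 ± 0.10, -0.43 ± 0.10 and -0.69 ± 0.10 in the same order. Ndufb2, an accessory subunit of complex I, was lower with cholesterol in siAtf3 cells (-0.43 ± 0.14, adjusted p = 0.011), at a level of 4.98 ± 0.368 CPM with cholesterol and 6.71 ± 0.828 CPM with control (SD, n = 4 each) and it overlaps Braf, which had 37.8 CPM on average. A further 10 members, among them Uqcrh, Atp5o and Ndufv3, passed the test in none of the 4 groups (19.6% of all genes).

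With Nfe2l1 silenced, 8 of the 83 members were called lower than with scramble in control and 64 in cholesterol, and none was called higher. All comparisons of a siRNA with scramble within 1 treatment share the same 4 scramble libraries. In control, 0 members were higher and 8 lower with siNfe2l1 (3.13% of all genes higher and 2.87% lower). The median log2 fold change was -0.09, and 73 of 83 members had a negative value, and in 6 of the 8 the groups did not overlap. Medians with a siRNA and counts of negative values, here and below, come without the values over all genes. They do not set the members apart from other genes. In cholesterol, 0 were higher and 64 lower (11.3% of all genes higher and 8.59% lower), with a median of -0.25 and 80 of 83 members negative. The 64 comprised 31 of complex I (median -0.27), 2 of complex II (-0.12), 7 of complex III (-0.27), 11 of complex IV (-0.26) and 13 of complex V (-0.23), and in 49 of them the siNfe2l1 libraries lay below all scramble libraries. Without library 1 of scramble cholesterol, 40 members were lower and the median was -0.19, and a fit on only the groups compared called 20 lower and 0 higher. In control, the 8 calls became 2 without library 1 or 3 of siNfe2l1 control and 4 or 5 without library 1, 2 or 3 of scramble control. They became 12 without library 4 of siNfe2l1 control, and 24 without this library and library 1 of scramble cholesterol.

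Lower with siNfe2l1 in both treatments were 8 members, and 0 were higher in both (1.97% of all genes lower and 1.78% higher). Among the 8 were Ndufa2, Ndufa10, Ndufb7, Ndufb10 and Ndufs1 of complex I, and Atp5a1 and Atp5pb (the b subunit of the stalk) of complex V. Ndufa2, an accessory subunit of complex I, had 78.9, 69.8, 70.4 and 76.0 CPM with siNfe2l1 and 137, 103, 106 and 103 CPM with scramble in cholesterol. In control it had 64.6, 65.3, 64.9 and 81.5 CPM with siNfe2l1 and 87.3, 87.2, 85.0 and 84.2 CPM with scramble. The groups did not overlap in either treatment. The log2 fold change in cholesterol was -0.60 ± 0.08 (adjusted p = 1.6e-06), the lowest of all members, and in control -0.32 ± 0.08 (adjusted p = 0.0112). Ndufb7, an accessory subunit on the intermembrane side, had 47.5, 41.7, 48.6 and 49.4 CPM with siNfe2l1 and 76.6, 58.0, 55.6 and 62.0 CPM with scramble in cholesterol (-0.43 ± 0.08, adjusted p = 0.000297). Its log2 fold change in control was -0.33 ± 0.08 (adjusted p = 0.00767), the lowest of the members there.

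In cholesterol, the lower members with siNfe2l1 included the named members of complexes II to V. Cox5b, which binds zinc in complex IV, had 211, 183, 186 and 187 CPM with siNfe2l1 and 283, 239.6, 258 and 238 CPM with scramble. No library overlapped (-0.41 ± 0.07, adjusted p = 2.57e-05). Cox4i1 had 634, 563, 577 and 557 CPM with siNfe2l1 and 835, 660.0, 672 and 673 CPM with scramble (-0.28 ± 0.06, adjusted p = 0.00119), where the first scramble library stood far above the rest. Atp5b changed by -0.22 ± 0.04 (adjusted p = 0.000112), Uqcrc2 by -0.18 ± 0.04 (adjusted p = 0.00259), Uqcrb by -0.41 ± 0.08 (adjusted p = 0.000642) and Sdhb by -0.26 ± 0.05 (adjusted p = 0.00067). The paralogs and tissue isoforms were not called with siNfe2l1 in cholesterol: the log2 fold changes were 0.09 for Ndufa4l2 (95% interval -0.07 to 0.25), -0.10 for Cox4i2 (-0.32 to 0.11), -0.27 for Cox8b (-0.52 to -0.02, adjusted p = 0.12) and 0.00 for Cox6a2 (-0.39 to 0.39). Ndufb1 (-0.50 ± 0.17, adjusted p = 0.0347) lost its call without library 1, 3 or 4 of scramble cholesterol or library 2 or 3 of siNfe2l1 cholesterol. Cox7a2 lost its call without library 1 of scramble cholesterol or library 2 or 3 of siNfe2l1 cholesterol, and Cox6a1 and Ndufb8 without library 1 of scramble cholesterol.

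Other measures moved with this comparison. Macrophage markers summed to 258 to 301 CPM with siNfe2l1 and 142 to 173 CPM with scramble in cholesterol, and 12 of the 13 were called higher. In control they summed to 305 to 460 CPM with siNfe2l1 and 229 to 267 CPM with scramble, with 11 of 13 higher. In cholesterol, 5 of 11 fibroblast and 7 of 10 endothelial markers were also called higher with siNfe2l1. Adipocyte genes summed to 29174 to 29763 CPM with siNfe2l1 and 31274 to 33049 CPM with scramble in cholesterol, without overlap. In control they summed to 22568 to 25071 CPM with siNfe2l1 and 24799 to 25714 CPM with scramble, with overlap. Their part in the subunit result was not tested. Gene length also moved with the fold changes. In cholesterol with siNfe2l1, the median log2 fold change of the 21 members under 1000 bases was -0.28 and that of the 10 members over 4000 bases -0.21, while the medians of other genes in these length classes were -0.16 and 0.02. For cholesterol against control in scramble cells, the medians over 5 length classes were 0.38, 0.31, 0.27, 0.23 and 0.19 for the members, short to long, and 0.19, 0.18, 0.12, 0.11 and 0.07 for other genes. With the trend on gene length removed from all genes, the siNfe2l1 comparison in cholesterol called 54 members with a median of -0.18, and cholesterol in scramble cells called 61 with a median of 0.19.

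**Figure D4:**
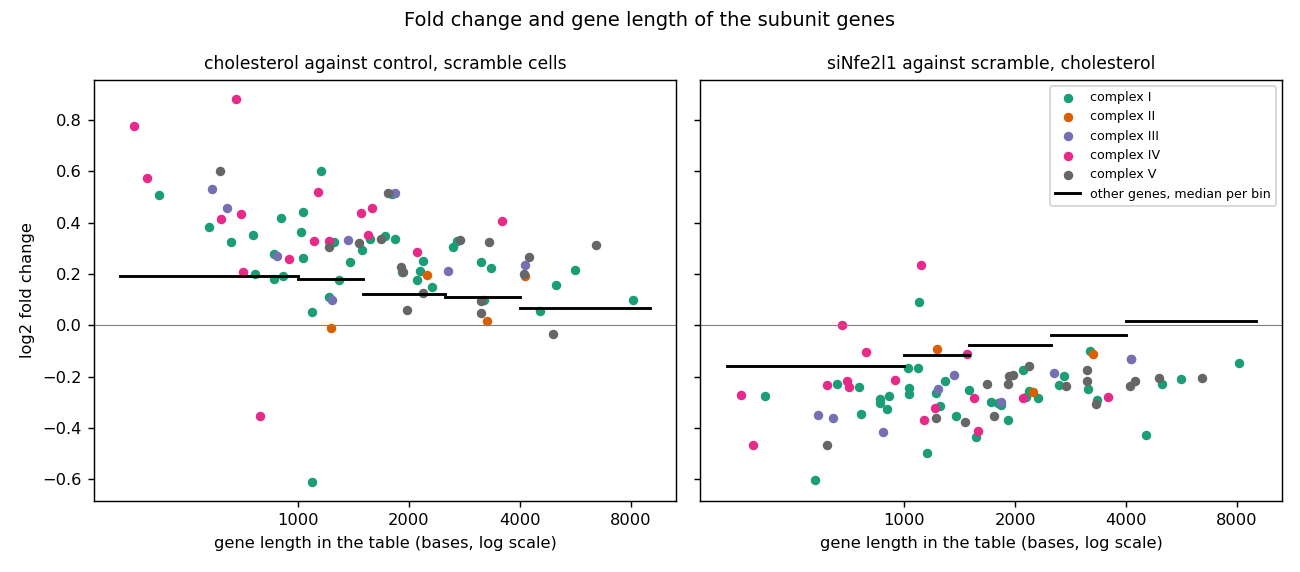
Log2 fold change (y axis) against gene length in bases (x axis, log scale) of the 83 subunit genes, coloured by complex, for cholesterol against control in scramble cells and siNfe2l1 against scramble in cholesterol, with black lines for the median of other genes in each length class. Under 1000 bases, the median of the members is 0.38 against 0.19 for other genes in the first comparison and -0.28 against -0.16 in the second, and single members such as Ndufa4l2 lie on the other side of the lines.

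With Atf3 silenced, some subunit mRNAs were lower and others higher than with scramble. In control, 6 members were higher and 12 lower with siAtf3 than with scramble (18.1% of all genes higher and 18.2% lower), with a median log2 fold change of 0.00. Neither count was a larger share of the members than that of all genes. In cholesterol, 8 were higher and 37 lower (23% of all genes higher and 27.4% lower), median -0.16. Without library 1 of scramble cholesterol, 9 were higher and 22 lower, median -0.08, and without library 1 of siAtf3 cholesterol 8 and 41. Fits on only the groups compared gave 15 higher and 22 lower in control and 8 higher and 20 lower in cholesterol. Of the 12 lower and 6 higher members in control, 12 and 5 were called in the same direction in cholesterol, and 0 in the opposite one. With both siRNAs, 4 members were higher and 9 lower in control (12.9% of all genes higher and 14.3% lower, median -0.03), and 6 were higher and 30 lower in cholesterol (20.8% higher and 23.9% lower, median -0.14). Without library 1 of scramble cholesterol the last counts were 7 higher and 16 lower. In control they were 3 higher and 10 lower without library 4 of both siRNAs, and 6 higher and 20 lower in a fit on only the groups compared. With both siRNAs, macrophage markers summed to 502 to 550.0 CPM, against 229 to 267 CPM with scramble in control (12 of 13 higher), and 7 of 13 were higher in cholesterol. Fibroblast markers summed to 7055 to 8186 CPM with both siRNAs and 10686 to 11418 CPM with scramble in cholesterol (9 of 11 lower, 1 higher), and 6 of 11 were lower in control. Of 20 adipocyte genes, 7 were lower and 2 higher in control and 11 lower and 2 higher in cholesterol. The part of these markers in the subunit results was not tested. The direction of the counts depended on the scaling. With library totals alone, the median of all genes moved by 0.15 in control and 0.17 in cholesterol for siAtf3, and the members' medians were 0.13 and 0.03. The calls were then 31 higher and 7 lower in control and 26 higher and 13 lower in cholesterol. With both siRNAs they were 15 higher and 7 lower in control and 16 higher and 8 lower in cholesterol.

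Ndufc1, a small accessory subunit of complex I (chr3:51312098-51316409, minus strand, GRCm39 in the table), fell most. It had 28.0, 26.0, 29.0 and 27.9 CPM with siAtf3 and 63.5, 58.9, 55.7 and 54.5 CPM with scramble in control, and 34.02, 26.8, 26.0 and 29.1 CPM with siAtf3 and 79.3, 68.9, 63.7 and 73.1 CPM with scramble in cholesterol. Every siAtf3 library lay far below every scramble library, with log2 fold changes of -1.07 ± 0.08 in control and -1.30 ± 0.08 in cholesterol (adjusted p = 6.28e-14 and 2.64e-16). With both siRNAs it had 29.4, 30.0, 29.2 and 35.3 CPM in control and 35.4, 36.5, 34.6 and 35.5 CPM in cholesterol, again below all scramble libraries (-0.90 ± 0.07 and -1.0 ± 0.08). With siNfe2l1 alone it was lower in cholesterol (-0.25 ± 0.07, adjusted p = 0.0126) and not called in control (-0.14 ± 0.07, 95% interval -0.29 to 0.01).

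Of complex V, the genes of the c ring were affected in opposite directions. Atp5g1, Atp5g2 and Atp5g3 encode the same mature c subunit with different import sequences. Atp5g1 had 39.9, 40.5, 41.1 and 36.5 CPM with siAtf3 and 54.5, 56.7, 55.0 and 63.1 CPM with scramble in control (-0.54 ± 0.09, adjusted p = 2.95e-05), without overlap. Atp5g3 had 417, 424, 440.5 and 424 CPM with siAtf3 and 363, 344, 352 and 349 CPM with scramble (0.28 ± 0.05, adjusted p = 5e-05). The share of Atp5g1 in the sum of the 3 genes per kilobase was 2.88% to 3.23% with siAtf3 and 4.70% to 5.58% with scramble in control, and 2.46% to 2.87% with siAtf3 and 3.94% to 4.85% with scramble in cholesterol. The share of Atp5g3 was 74.8% to 76.3% with siAtf3 and 68.8% to 70.6% with scramble in control. In cholesterol Atp5g3 made up 76.1% to 76.9% with siAtf3 and 66.6% to 68.2% with scramble, and Atp5g2 changed by -0.36 ± 0.06 (adjusted p = 8.38e-06).

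In all, 12 of the 83 members were lower and 5 higher with siAtf3 in both treatments, where 13.8% of all genes were lower and 12.5% higher in both. With both siRNAs, 9 were lower and 2 higher in both treatments, where 10.2% of all genes were lower and 8.34% higher in both. With siAtf3 and with both siRNAs, the share of lower members was close to that of all genes and the share of higher members smaller. Sdhb, the iron-sulfur subunit of complex II, had 194, 192, 202 and 193 CPM with siAtf3 and 253, 251, 242 and 236 CPM with scramble in control, and 219.9, 215, 218 and 223 CPM with siAtf3 and 322, 273, 254 and 278 CPM with scramble in cholesterol. The log2 fold changes were -0.33 ± 0.05 and -0.36 ± 0.05 (adjusted p = 5.34e-06 and 6.72e-07), while the membrane anchor Sdhc was higher (0.13 ± 0.05 and 0.22 ± 0.05). Ndufs8, an iron-sulfur subunit of complex I, changed by -0.43 ± 0.07 in control and -0.48 ± 0.07 in cholesterol (adjusted p = 4.86e-06 and 3.31e-07). The accessory subunits Ndufa8, Ndufa9 and Ndufa10 changed by -0.42 ± 0.06, -0.31 ± 0.05 and -0.26 ± 0.05 in control. In contrast, the core subunits Ndufs1 and Ndufs7 of complex I were higher with siAtf3, by 0.18 ± 0.04 and 0.32 ± 0.08 in control and by 0.26 ± 0.04 and 0.20 ± 0.08 in cholesterol. Ndufs1 was thus lower with siNfe2l1 and higher with siAtf3 than with scramble, in both treatments. Its siNfe2l1 call in control was lost without library 1 or 2 of scramble control or library 1 or 3 of siNfe2l1 control. With both siRNAs, Ndufs1 changed by 0.09 ± 0.04 in control (95% interval 0.01 to 0.18) and 0.18 ± 0.04 in cholesterol. Ndufs1 overlaps Eef1b2, which had 211 CPM on average.

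**Figure D5:**
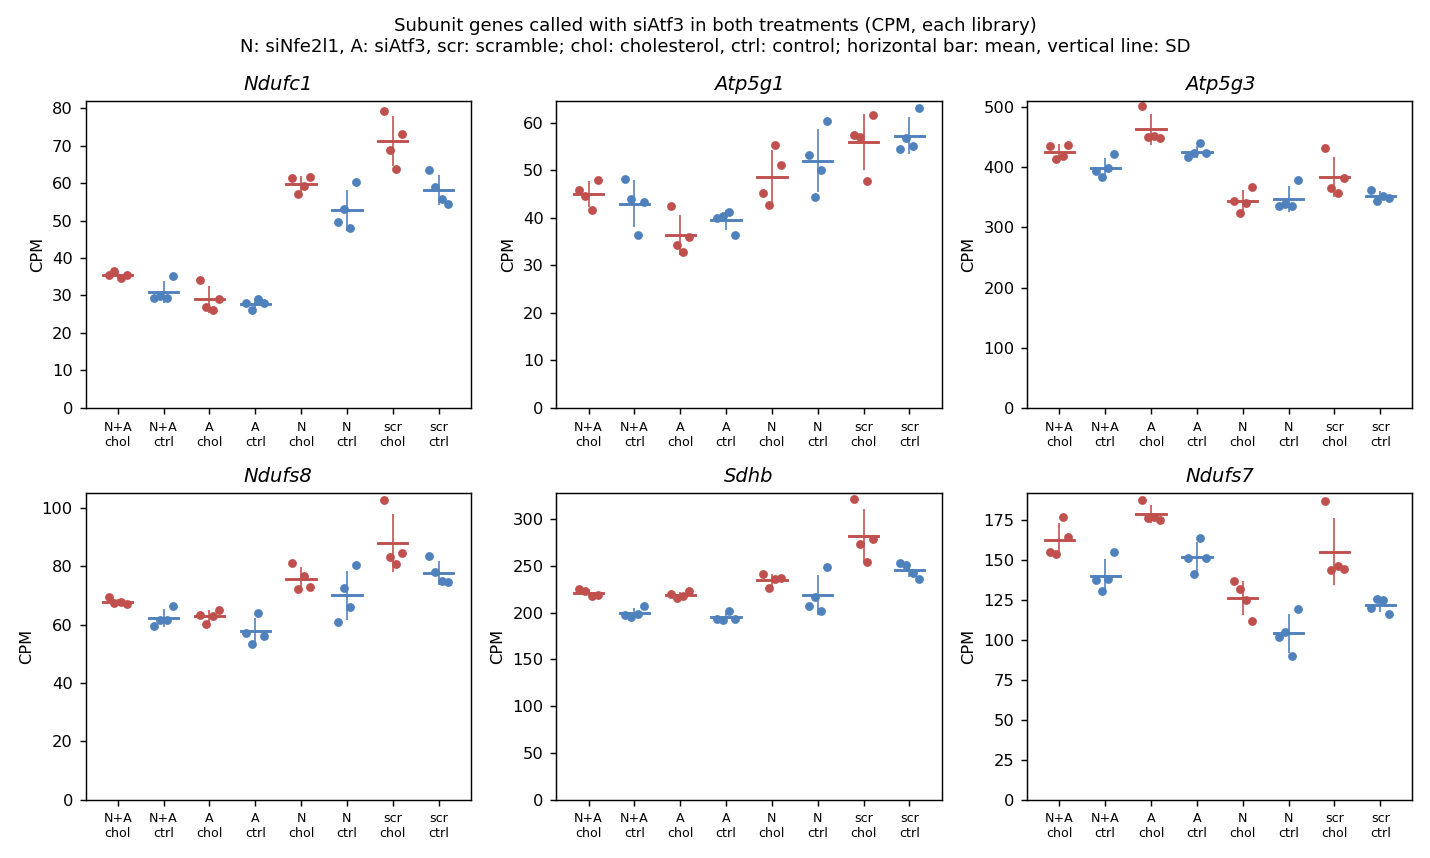
Levels in CPM (y axis, from 0) in the 8 groups (x axis) of members that differed between siAtf3 and scramble, with a dot for each library, a bar for the mean and a line for the SD of 4 libraries. Ndufc1 lies between 26.0 and 34.02 CPM in siAtf3 libraries and between 54.5 and 79.3 CPM in scramble libraries.

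Ndufa10 was lower in all 6 comparisons of a siRNA with scramble, as were 0.536% of all genes. It had 179, 176, 187 and 199 CPM with both siRNAs, 180.0, 171, 191 and 185 CPM with siAtf3 and 185, 187, 189 and 212 CPM with siNfe2l1, against 218, 223, 215 and 216 CPM with scramble in control. In cholesterol it had 212, 199, 209 and 199 CPM with both siRNAs, 216, 204, 202 and 201 CPM with siAtf3 and 219, 204, 208 and 201 CPM with siNfe2l1, against 273, 248, 256 and 241 CPM with scramble. The log2 fold changes in control were -0.23 ± 0.05, -0.26 ± 0.05 and -0.17 ± 0.05, and in cholesterol -0.31 ± 0.05, -0.30 ± 0.05 and -0.29 ± 0.05. In each treatment, every library of a silenced group lay below every scramble library. Ndufa10 is an accessory subunit on the matrix side of complex I.

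Cox8b was lower with siAtf3 in cholesterol, with 30.6, 21.3, 19.8 and 18.9 CPM, against 43.9, 39.9, 38.0 and 43.4 CPM with scramble. All siAtf3 libraries lay below all scramble libraries (-0.87 ± 0.13, adjusted p = 1.19e-06). In control it had 21.4, 18.3, 15.1 and 20.1 CPM with siAtf3 and 25.3, 26.5, 21.1 and 23.7 CPM with scramble (-0.37 ± 0.13, adjusted p = 0.026), a call that was lost without library 1 or 2 of scramble control or library 3 of siAtf3 control, with library totals alone (adjusted p = 0.133) and without a filter (adjusted p = 0.0618). With both siRNAs in cholesterol its log2 fold change was -0.37 ± 0.12 (adjusted p = 0.0141), a call lost with library totals alone (adjusted p = 0.119) and with the length trend removed (adjusted p = 0.143). Cox6b2 was higher with siAtf3 in control, with 3.41, 2.73, 2.95 and 3.19 CPM, against 1.49, 1.69, 1.70 and 1.84 CPM with scramble (0.87 ± 0.17, adjusted p = 6.46e-05). Cox7a2l and Cox6a1 were lower with siAtf3 in cholesterol (-0.38 ± 0.07 and -0.33 ± 0.06). Beside these changes, fibroblast markers summed to 5962.7 to 6668 CPM with siAtf3 and 10686 to 11418 CPM with scramble in cholesterol, with 9 of 11 called lower. In control, 10 of 20 adipocyte genes were called lower and 1 higher with siAtf3. Adipocyte genes summed to 26130 to 28157 CPM with siAtf3 and 31274 to 33049 CPM with scramble in cholesterol. In control these sums were 19989 to 21384 CPM with siAtf3 and 24799 to 25714 CPM with scramble. Endothelial markers summed to 769 to 782 CPM with siAtf3 and 919 to 996 CPM with scramble in control, and to 355 to 410.0 CPM with siAtf3 and 500.0 to 618 CPM with scramble in cholesterol. Smooth muscle and pericyte markers summed to 361 to 384 CPM with siAtf3 and 498 to 525 CPM with scramble in cholesterol (5 of 10 lower, 2 higher). Macrophage markers summed to 312 to 407 CPM with siAtf3 and 229 to 267 CPM with scramble in control (5 of 13 higher, 1 lower). Their part in the subunit results was not tested.

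Whether the response to cholesterol itself differed between siRNA groups was tested as an interaction. For siNfe2l1, 0 members passed (0.206% of all genes higher and 0.0412% lower), with a median of -0.15 and 81 of 83 members negative. At an unadjusted p under 0.05, 26 were lower and 0 higher, where 6.14% of all genes were lower and 9.11% higher. DESeq2 called 4, and the smallest adjusted p was 0.0539 for Cox5b-ps (-0.51 ± 0.12). Leaving out library 1 of siNfe2l1 cholesterol gave 12 calls, library 4 of scramble cholesterol 2 and library 1 of siNfe2l1 control 1. Without library 1 of scramble cholesterol and library 4 of siNfe2l1 control together, the median was -0.03 with 0 calls. For siAtf3, 1 member was higher and 2 were lower (6.21% of all genes higher and 9.13% lower), median -0.11, namely Ndufa4l2 (0.31 ± 0.11, adjusted p = 0.0482), Ndufb2 (-0.64 ± 0.20, adjusted p = 0.029) and Atp5g2 (-0.27 ± 0.09, adjusted p = 0.0319). At an unadjusted p under 0.05, 1 was higher and 14 lower (12.4% of all genes higher and 16.2% lower). The count of calls ranged from 0 to 19 when single libraries were left out, with 19 without library 1 of siAtf3 cholesterol and 0 without library 3 of scramble control, library 4 of siAtf3 control or library 3 of siAtf3 cholesterol. It was 1 without any other library of scramble control, library 1 or 2 of siAtf3 control, library 1 or 4 of scramble cholesterol or library 4 of siAtf3 cholesterol. For both siRNAs, 0 members passed (6.52% of all genes higher and 7.21% lower), with 0 higher and 6 lower at an unadjusted p under 0.05 (13.6% of all genes higher and 14.5% lower) and 0 by DESeq2, and 1 was called without library 2 of scramble cholesterol.

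Other mitochondrial genes were described from lists of the same pathway. Cholesterol in scramble cells, for which 32.9% of all genes were higher and 32.3% lower, was accompanied by a higher level of 17 of 19 citric acid cycle enzymes and a lower level of 0 (median log2 fold change 0.18). Of 14 mitochondrial chaperones and proteases 11 were higher and 1 lower (median 0.36), and of 19 electron carriers and coenzyme Q enzymes 11 were higher and 4 lower (0.23). Of 45 assembly factors 15 were higher and 4 lower (0.10), a share of higher calls close to that of all genes. Pdhb of pyruvate dehydrogenase rose by 0.81 ± 0.06, the chaperone Hspd1 by 0.95 ± 0.05, Cycs (cytochrome c) by 0.49 ± 0.06 and Cyc1 (cytochrome c1 of complex III) by 0.28 ± 0.05. Of the mitochondrially encoded subunits, 0 of 13 were higher and 3 lower (median -0.20). Of the regulators of mitochondrial biogenesis, 10 of 16 were higher and 2 lower. Ppargc1a, a coactivator of mitochondrial genes, had 63.1, 65.6, 77.6 and 56.8 CPM with cholesterol and 11.5, 10.8, 11.8 and 11.3 CPM with control in scramble cells, without overlap (2.54 ± 0.19). Its relative Ppargc1b rose by 1.90 ± 0.16, the receptor Esrra by 0.26 ± 0.05 and Nrf1 by 0.53 ± 0.07, whereas Gabpa and Tfam were not called (0.06 and 0.02, adjusted p = 0.442 and 0.785).

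With siNfe2l1 in cholesterol (8.59% of all genes lower), 14 of 19 citric acid cycle enzymes were lower and 0 higher (median -0.19), as were 10 of 19 electron carriers and coenzyme Q enzymes (-0.14), 8 of 14 chaperones and proteases (-0.18) and 6 of 45 assembly factors (-0.07), with 0 higher in each list. None of the 13 mitochondrially encoded subunits passed the test (median 0.04). Ppargc1a changed by -0.65 ± 0.17 (adjusted p = 0.00896), Esrra by -0.20 ± 0.04 (adjusted p = 0.00133) and Nrf1 by -0.19 ± 0.06 (adjusted p = 0.0347). With siAtf3 in cholesterol, Ppargc1a had 13.6, 10.8, 12.7 and 9.89 CPM, against 63.1, 65.6, 77.6 and 56.8 CPM with scramble (-2.49 ± 0.19, adjusted p = 3.41e-11). In control it had 4.88, 4.38, 3.87 and 4.73 CPM with siAtf3, against 11.5, 10.8, 11.8 and 11.3 CPM with scramble (-1.35 ± 0.23, adjusted p = 3.21e-05). Within siAtf3 cells it was thus higher with cholesterol than with control (1.40 ± 0.23), by less than in scramble cells (interaction -1.14 ± 0.30, adjusted p = 0.0115). With siAtf3 in cholesterol, Ppargc1b changed by 0.01 ± 0.14 (95% interval -0.29 to 0.31) and Esrra by 0.13 ± 0.04. Of the citric acid cycle enzymes, 4 of 19 were higher and 7 lower with siAtf3 in cholesterol, and of the assembly factors 16 of 45 were higher and 9 lower (23% of all genes higher and 27.4% lower). Dld, the dihydrolipoamide dehydrogenase shared by several complexes, changed by -0.72 ± 0.05 in cholesterol and -0.73 ± 0.05 in control. In control, 7 of 13 mitochondrially encoded subunits were lower with siAtf3 (median -0.28, with 18.2% of all genes lower) and 0 higher.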

How the data were processed

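Poly(A) RNA of 32 libraries (4 in each of 8 groups) was sequenced. Per the submitters' processing notes, fastp, HISAT2 2.0.5, featureCounts 1.5.0-p3 and GRCm39 were used. The deposited table holds whole-number read counts per gene, with no scaling visible in the values. Strandedness and the handling of reads with several alignments are not given in the sources used here. An added C in column names was read as cholesterol.

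Work was done in R 4.3.3 with edgeR 4.0.16. Its filterByExpr kept genes with enough counts for the group size (at least 10 in a library, 15 in total), and TMM factors of 0.886 to 1.10 scaled the libraries. A robust quasi-likelihood fit held 1 mean for each of 8 groups, which left 24 residual degrees of freedom. The 13 contrasts (10 comparisons of 2 groups and 3 interactions) were tested with glmQLFTest, and p-values were adjusted by Benjamini-Hochberg over all 16984 genes. The threshold for a call was an adjusted p of 0.05. Log2 fold changes are ± SE and intervals are at 95%. The pipeline was tested on simulated data. No library is a copy: over the 48 pairs within groups, the chi-square of the counts divided by its degrees of freedom was 3.22 to 60.3. With at least 23457384 counts per library, genes near 1 CPM rest on few reads.

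The members and gene lists were chosen with earlier results of these data known. Named were fixed members per complex, all isoforms and paralogs, and up to 5 called members with the highest and 5 with the lowest log2 fold change per comparison, plus the 3 highest and 3 lowest levels per complex, up to 3 called genes per list by smallest adjusted p, and 8 regulators and carriers. Some were left out for brevity, and the results of 1 member are counted but not reported here. Other members (Ndufs7, Ndufa9, Ndufa10, Ndufb10, Sdhc, Atp5g2 and members of shared calls) were chosen after their values were seen. Of the 83 members tested, 26 overlap another tested gene. The length classes are split at 1000, 1500, 2500 and 4000 bases.

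Alternatives were DESeq2 1.42.0 size factors and its Wald test, library totals alone, no filter, limma-voom (limma 3.58.1), fits on only the groups compared, a replicate block and leaving out each library. Removal of a trend on gene length, and leaving out library 1 of scramble cholesterol together with library 4 of siNfe2l1 control, were added after seeing the data. Of 112 same-number pairs from different groups, 31 correlated above 0.1 (r from -0.31 to 0.56, median 0.027). Of 336 different-number pairs, 56 did (r from -0.63 to 0.57, median -0.005). Library 1 had the highest median of the members in every cholesterol group, by little with both siRNAs, and library 1 or 4 in every control group. A pairing by number is thus not excluded, and the main fit held no replicate block.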

Additional observations from a re-analysis of the deposited data

Results flagged for a closer look

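In 144 groups of 4 values, 9 held a library far from the other 3, and chance gives about 1 in 20. The median log2 level of the members was 0.093 in library 4 of both siRNAs in control, above the rest of its group. Library 1 of scramble cholesterol was far above its group in Cox4i1 (835 CPM), Cox6a1 (1023 CPM) and Ndufb8 (166 CPM). Library 4 of siNfe2l1 control was far above its group in Cox4i1 (620.4 CPM) and Ndufa4 (172 CPM). Sdhb in library 3 of siAtf3 control (202 CPM), Cox4i2 in library 2 (6.60 CPM) and Cox6b2 in library 1 of siNfe2l1 cholesterol (3.11 CPM) also lay apart from their groups.

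The response to cholesterol differed between siAtf3 and scramble cells, by the interaction in edgeR's quasi-likelihood test, for Ndufa4l2 (log2 difference 0.31, adjusted p = 0.0482), Ndufb2 (-0.64, adjusted p = 0.029) and Atp5g2 (-0.27, adjusted p = 0.0319). Each of these calls was lost when any 1 of several libraries was left out.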

How the results depend on the processing

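Of the results for single genes under all alternatives, 4422 kept direction and call, 210 lost and 82 gained a call, and 4 changed sign. All 4 came with library totals alone: Ndufs1 with cholesterol in scramble cells (-0.023), Atp5b with siAtf3 in control (0.032), and Uqcrc2 (0.14) and Cox4i1 (0.041) with siAtf3 in cholesterol. Of the counts and medians over the members, 423 stayed close and 59 moved. DESeq2 size factors and limma-voom moved none.

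Library totals alone gave 13, 29 and 29 members called with cholesterol in siNfe2l1, siAtf3 and both-siRNA cells, and a median of 0.15 in scramble cells. They gave 38 with siAtf3 (median 0.13) and 22 with both siRNAs (median 0.067) in control, and medians of 0.028 and 0.011 in cholesterol. Without a filter, 11 were called with cholesterol in siNfe2l1 cells, and 1 in each interaction with a single siRNA. Fits on only the groups compared gave 15 with cholesterol in siNfe2l1 cells, 37 with siAtf3 and 26 with both siRNAs in control, and 20 with siNfe2l1 and 28 with siAtf3 in cholesterol. Removing the length trend gave a median of 0.19 for cholesterol in scramble cells, 18, 31 and 22 calls in control with siNfe2l1, siAtf3 and both siRNAs, a median of -0.071 with siAtf3 in cholesterol, and 5 and 2 calls in the interactions with siAtf3 and both siRNAs. Without scramble cholesterol library 1 and siNfe2l1 control library 4, there were 45 calls with cholesterol in siNfe2l1 cells, 24 with siNfe2l1 in control and 1 in the interaction with siAtf3, and a median of -0.033 in that with siNfe2l1. The DESeq2 Wald test called 4 members in the interaction with siNfe2l1. The cause was not tested.

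Whether the replicate numbers pair the samples is not settled. The replicate block gave 2 and 6 calls in the interactions with siNfe2l1 and siAtf3, moved no other count of calls by over 1.5 times, and gave 67 calls for siNfe2l1 in cholesterol. With single libraries left out, calls ranged from 13 to 36 for cholesterol in siNfe2l1 cells, 2 to 12 for siNfe2l1 in control, 40 to 70 for siNfe2l1 and 23 to 37 for both siRNAs in cholesterol, and 0 to 12, 0 to 19 and 0 to 1 in the interactions with siNfe2l1, siAtf3 and both siRNAs. Members below about 2 CPM, such as Cox6a2, rest on few reads. In the interactions, gene-level log2 differences near 0.1 are close to the SE of many members.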

Other observations

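Atpif1, which encodes the inhibitor of the ATP synthase and lies outside the rule for members, was lower with cholesterol. In scramble cells it had 20.4, 16.4, 13.1 and 16.2 CPM with cholesterol and 22.97, 23.4, 19.1 and 19.6 CPM with control (log2 fold change -0.37 ± 0.10, adjusted p = 0.00181, edgeR's quasi-likelihood test). With siNfe2l1, siAtf3 and both siRNAs the log2 fold changes with cholesterol were -0.30 ± 0.10, -0.49 ± 0.10 and -0.41 ± 0.10. With siAtf3 in control it differed from scramble by 0.32 ± 0.10 (adjusted p = 0.00857). Idh3g, a subunit of isocitrate dehydrogenase, and Coq8a, a kinase-like protein of coenzyme Q synthesis, were lower with siAtf3 than with scramble in cholesterol, by log2 fold changes of -0.71 ± 0.05 and -0.77 ± 0.07 (adjusted p = 3.64e-14 and 1.07e-10).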
